A study of Mus musculus with 16 samples.

Results

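The major urinary proteins (Mup) are small secreted proteins that mouse hepatocytes release into the blood and that pass into the urine. They belong to the lipocalins, barrel-shaped carriers of small hydrophobic molecules, and they bind volatile scent signals. Their genes lie side by side in a single cluster on chromosome 4, and many of them are near-identical copies. Adult males of many strains make more of them than females, in response to the male pattern of pituitary growth hormone and to androgens. The 9 members described here are Mup1, Mup2, Mup3, Mup7, Mup10, Mup11, Mup17, Mup20 and Mup21. They were chosen by symbol from the 78317 listed genes, and all 9 passed the filter on low counts that left 14781 genes for testing. The table held 22 Mup rows with a number in the symbol and 27 pseudogene rows. A sum over the 9 members, the family sum, was analysed beside them because near-identical copies share sequencing reads.

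RNA was measured in whole liver of wild-type C57BL/6J mice, an inbred laboratory strain, in 4 groups of 4. The groups were females and males on a normal diet (chow below) with 4.5% of calories from fat, and females and males on a high fat diet with 60% of calories from fat. The mice were 6 weeks old on arrival and were fed for 10 weeks. The feeds came from different makers, so the diets can differ in more than fat. The question set by the design is how the diet acts in each sex.

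Expected counts are RSEM's estimates of the reads of each gene, with shared reads divided between genes. They summed to between 22.2 and 41.4 (in units of 1000000 counts) per library, and all libraries carry 1 batch number. The labels do not say whether libraries of a group came from separate litters or cages. Male high fat diet replicates 2 and 3 stood apart. Their counts differed from each other by a chi-square of 4.06 per gene, against 19.8 to 283 for the other 23 pairs of libraries within a group, where counting error alone gives about 1. The labels do not say whether these 2 libraries share an animal or a preparation. They were counted as 2 libraries, so tests and SDs of that group take them as independent. Values without them are given where a call or a value changed materially. Hepatocyte markers were tested for 7 of 8 (Tf had no row by that symbol). Kidney and salivary gland, other sites of lipocalin production, gave summed marker levels of at most 0.0864 and 0.0374 CPM (counts per 1000000 of the scaled library size) in any library. Kap and Slc34a1, defining kidney genes, were at 0 in every library.

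The members fall into groups by sequence, and a 60-base stretch of their coding sequences shows how little separates some of them. The stretch is read 5′ to 3′ from the GENCODE M21 transcripts, with capitals marking bases that differ from the base most members carry.
Mup1: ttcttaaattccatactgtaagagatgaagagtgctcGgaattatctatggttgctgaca
Mup2: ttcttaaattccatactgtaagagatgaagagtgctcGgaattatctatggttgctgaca
Mup7: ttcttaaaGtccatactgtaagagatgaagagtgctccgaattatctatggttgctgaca
Mup10: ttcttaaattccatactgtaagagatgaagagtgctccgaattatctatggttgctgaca
Mup11: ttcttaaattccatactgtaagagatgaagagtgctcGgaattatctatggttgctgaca
Mup17: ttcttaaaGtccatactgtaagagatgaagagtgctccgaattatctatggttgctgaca
Mup20: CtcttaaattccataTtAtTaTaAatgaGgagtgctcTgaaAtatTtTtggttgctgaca
Mup3: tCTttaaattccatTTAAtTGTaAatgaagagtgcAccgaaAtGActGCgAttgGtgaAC
Mup21: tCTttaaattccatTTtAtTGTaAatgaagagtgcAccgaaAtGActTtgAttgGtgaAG
Mup1, Mup2 and Mup11 are the same in these bases, and so are Mup7 and Mup17. Over the whole coding sequence the first 6 members listed differ from the majority base at 2 to 7 positions, Mup20 at 53, Mup21 at 87 and Mup3 at 98.

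These differences set how far reads can be assigned. Of the 100-base windows of each transcript, the share found in no other Mup transcript was 97.1% for Mup3, 95.5% for Mup21 and 61.2% for Mup20. It was 40.6% for Mup17, between 12.8% and 16.5% for Mup1, Mup7, Mup10 and Mup11, and 2.66% for Mup2. Of the members' expected counts, 96.5% were not whole numbers, against 4.89% over the whole table. By the share of windows, levels of Mup3, Mup20 and Mup21 can rest mostly on sequence of their own. The split among Mup1, Mup2, Mup7, Mup10, Mup11 and Mup17 is uncertain and was set by the counting model.

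The family sum was lower in females than in males on either diet. On chow it was 5378, 5762, 4941 and 4538 CPM in the 4 females and 41173, 23285, 32872 and 33223 CPM in the 4 males. With the high fat diet it was 2420, 4402, 4232 and 3257 CPM in females and 34344, 19801, 20908 and 39042 CPM in males. The lowest male library lay above the highest female library on both diets. In bulk tissue, fewer cells of a type and less RNA per cell cannot be told apart. The summed level of 7 hepatocyte markers was higher in females than in males, at 105880 to 119020 against 87654 to 97098 CPM on chow. On the high fat diet it was 80671 to 98319 against 58550 to 80359 CPM. Most of this sum was Alb, with means of 90610 in females and 68674 CPM in males on chow. Single markers went both ways. On both diets the means of Alb and Ttr were higher in females, and those of Serpina1c, Apob and Hnf4a were lower. The direction for Apoa1 and Tat differed between the diets. The part of these markers in the Mup values was not tested. The difference in the family sum was 6.33-fold on chow (log2 fold change, females minus males, -2.66, SE 0.24, adjusted p = 1.29e-06) and 7.98-fold on the high fat diet (-3.00, SE 0.25, adjusted p = 3.23e-07). Adjusted p-values here and below are from edgeR's quasi-likelihood test over all tested genes. Without male high fat diet replicates 2 and 3 the difference on the high fat diet was -3.36 (adjusted p = 2.53e-08).

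**Figure D1:**
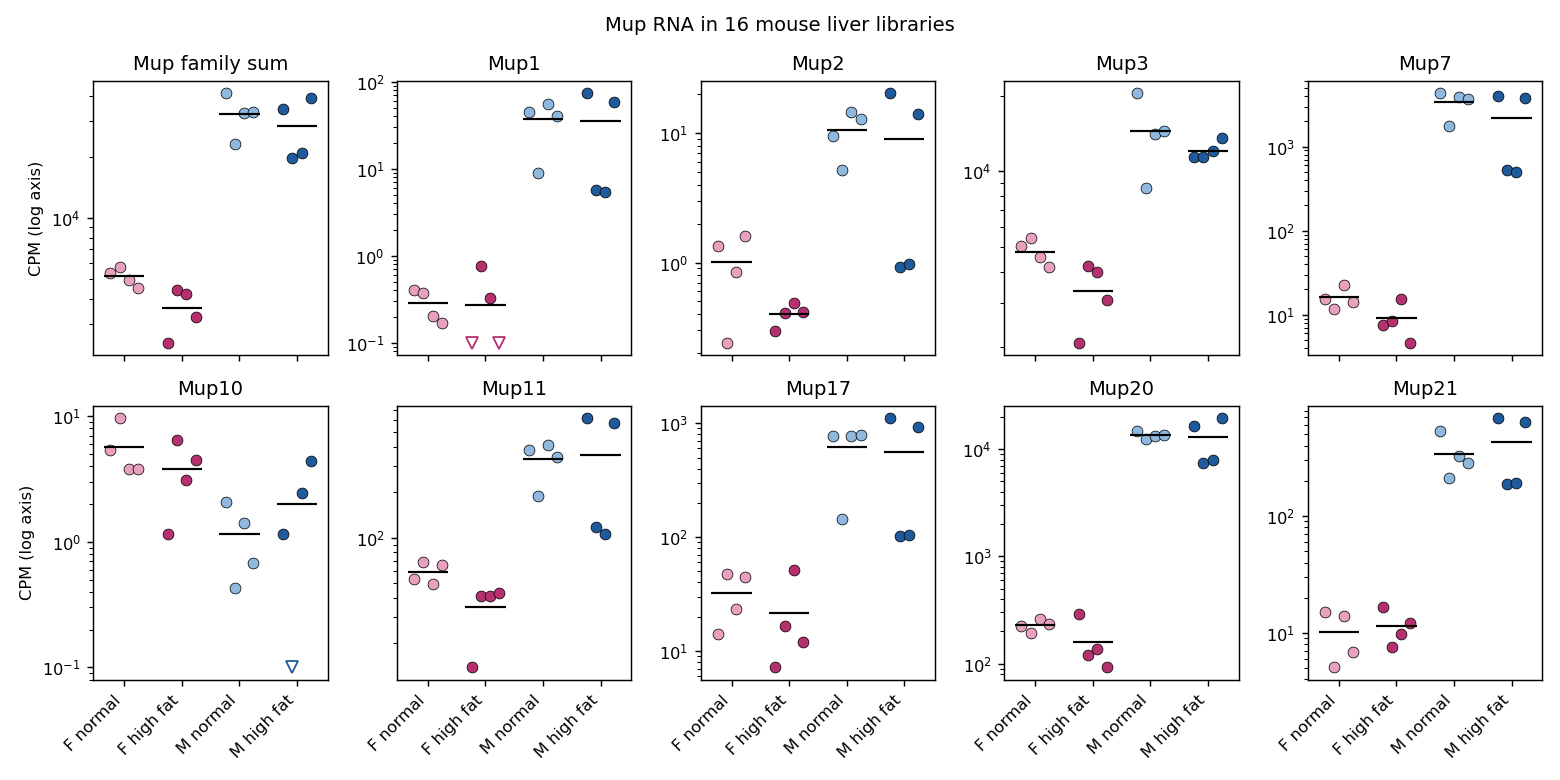
CPM on log axes for the family sum and the 9 members, with 1 point per library (4 per group: F female, M male) and a line at the group mean; open triangles at the foot mark libraries listed at 0. Within each diet, male libraries lie above female ones for the family sum and 8 members, Mup10 is the exception, and male high fat diet replicates 2 and 3 form a low pair for most members.

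Among the members, 8 of 9 were lower in females on chow, where 8.68% of all tested genes were called lower in females. With the high fat diet 8 of 9 were lower, where 11.6% of all tested genes were. The 8 were the same genes on both diets, and Mup10 was the one left out each time. Mup1, Mup2, Mup7, Mup10, Mup11 and Mup17 share most of their sequence, so the members are not separate observations. The libraries of the sexes did not overlap for 9 of 9 members on chow and for 8 of 9 on the high fat diet, against 22% and 22.7% of all tested genes. The median log2 fold change of the 9 members was -4.25 on chow and -4.70 on the high fat diet, against -0.00 and -0.01 for all tested genes.

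Mup3 (ENSMUSG00000066154.13), the member with the most sequence of its own, had the smallest of these 8 differences. On chow it was 5046, 5425, 4569 and 4165 CPM in females and 20383, 8627, 14104 and 14531 CPM in males. High fat diet values were 2085, 4200, 3972 and 3088 CPM in females and 11397, 11379, 12039 and 13564 CPM in males. The sexes did not overlap on either diet, and the male high fat diet libraries lay close together. Females were 3.00-fold lower on chow (log2 fold change -1.59, SE 0.23, adjusted p = 0.00016) and 3.63-fold lower on the high fat diet (-1.86, SE 0.23, adjusted p = 2.9e-05).

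Mup20 (ENSMUSG00000078672.3) encodes darcin, a male scent protein that attracts females. In females it was 226, 194, 258 and 236 CPM on chow and 289, 120, 138 and 92.2 CPM on the high fat diet. In males it was 14753, 12322, 13335 and 13508 CPM on chow and 16478, 7486, 7957 and 19479 CPM on the high fat diet. The normal diet males varied by 1.197-fold from lowest to highest, whereas in the high fat diet males replicates 2 and 3 were below and replicates 1 and 4 above every normal diet male. Females were 59-fold lower on chow (log2 fold change -5.88, SE 0.41, adjusted p = 1.68e-07) and 80.4-fold lower on the high fat diet (-6.33, SE 0.42, adjusted p = 6.94e-08). Without male replicates 2 and 3 the high fat diet value was -6.82.

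Mup21, the nearest relative of Mup3 in coding sequence at 94.8% identity, did not share its modest difference. It was 15.03, 5.06, 13.8 and 6.90 CPM in normal diet females and 537, 211, 326 and 285 CPM in normal diet males. On the high fat diet it was 16.5, 7.52, 9.81 and 12.2 CPM in females and 690, 188, 192 and 642 CPM in males. Females were 33.5-fold lower on chow (log2 fold change -5.07, SE 0.58, adjusted p = 0.000102) and 37.1-fold lower on the high fat diet (-5.21, SE 0.59, adjusted p = 7.03e-05). Without male replicates 2 and 3 the high fat diet value was -5.85. The 95% intervals of Mup3 and Mup21 on chow were -2.06 to -1.11 and -6.33 to -3.80 on the log2 scale.

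Of the near-identical copies, Mup7 had the largest estimate. In females it was 15.5, 11.8, 22.8 and 14.3 CPM on chow and 7.47, 8.52, 15.5 and 4.64 CPM on the high fat diet. In males it was 4287, 1777, 3851 and 3716 CPM on chow and 3954, 521, 499 and 3769 CPM on the high fat diet. Even the low pair of high fat diet males was above every female. The log2 fold change was -7.73 (SE 0.85, adjusted p = 7.18e-05) on chow and -7.92 (SE 0.86, adjusted p = 5.38e-05) on the high fat diet, where it was -8.74 without that pair.

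Mup17 and Mup11 were also above 100 CPM in every male. Mup17 was 14.1, 47.3, 23.2 and 44.99 CPM in normal diet females and 774, 145, 771 and 789 CPM in normal diet males. High fat diet values were 7.19, 16.5, 51.2 and 11.9 CPM in females and 1110, 102, 105 and 935 CPM in males. Male normal diet replicate 2 and male high fat diet replicates 2 and 3 were thus low among males, yet above all females. Mup17 was 19.1-fold lower in females on chow (adjusted p = 0.0121) and 26-fold lower on the high fat diet (adjusted p = 0.00678). The latter log2 fold change was -4.70, and -5.56 without male replicates 2 and 3.

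Mup11 had the smallest estimate of a sex difference among the near-identical copies called. It was 53.0, 68.9, 49.7 and 65.7 CPM in normal diet females and 383, 189, 414 and 340 CPM in normal diet males. With the high fat diet it was 13.9, 40.9, 41.5 and 43.3 CPM in females and 619, 118, 106 and 575 CPM in males. Mup11 was 5.58-fold lower in females on chow (log2 fold change -2.48, SE 0.58, adjusted p = 0.0121) and 10.2-fold lower on the high fat diet (-3.35, SE 0.60, adjusted p = 0.00232). The latter value was -4.10 without male replicates 2 and 3.

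Mup1 and Mup2 were sparse in females. Mup1, a secreted carrier also studied in glucose metabolism, had between 0 and 22.8 expected counts in a female library and between 158 and 1971 in a male library. It was listed at 0 in female high fat diet replicates 1 and 4. Its log2 fold change was -6.99 on either diet (SE 1.197, adjusted p = 0.00227 on chow and SE 1.21, adjusted p = 0.00202 on the high fat diet). Without male high fat diet replicates 2 and 3 the high fat diet value was -7.87, so the equal values on the 2 diets rest on that pair. Mup2 had between 7.81 and 63.2 expected counts in a female library and between 27.5 and 547 in a male library. Its log2 fold change was -3.38 (SE 0.91, adjusted p = 0.0243) on chow and -4.48 (SE 1.02, adjusted p = 0.00914) on the high fat diet, where it was -5.41 without the male pair. On chow Mup2 is the member whose call was lost when female replicate 1, 2 or 3 or male replicate 3 or 4 was left out (adjusted p between 0.0529 and 0.0761), and when no filter on low counts was used (0.0544). On the high fat diet it was lost when only the groups compared were fitted (0.0506).

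Mup10 was estimated higher in females, without passing the test. It was 5.43, 9.67, 3.81 and 3.78 CPM in normal diet females and 2.08, 0.43, 1.42 and 0.68 CPM in normal diet males, with no overlap between the sexes. With the high fat diet it was 1.15, 6.41, 3.09 and 4.45 CPM in females and 1.15, 0, 2.47 and 4.42 CPM in males, with overlap. The log2 fold change was 2.35 on chow (SE 0.84, unadjusted p = 0.0152, adjusted p = 0.0756) and 0.93 on the high fat diet (SE 0.81, adjusted p = 0.44). On chow it was called higher in females when male high fat diet replicate 2 was left out (adjusted p = 0.0188), when male high fat diet replicates 2 and 3 were both left out (0.0238) or averaged (0.0235), and when only the groups compared were fitted (0.00945). Its expected counts were at most 315 in a library, and 14.6% of its windows are its own.

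**Figure D2:**
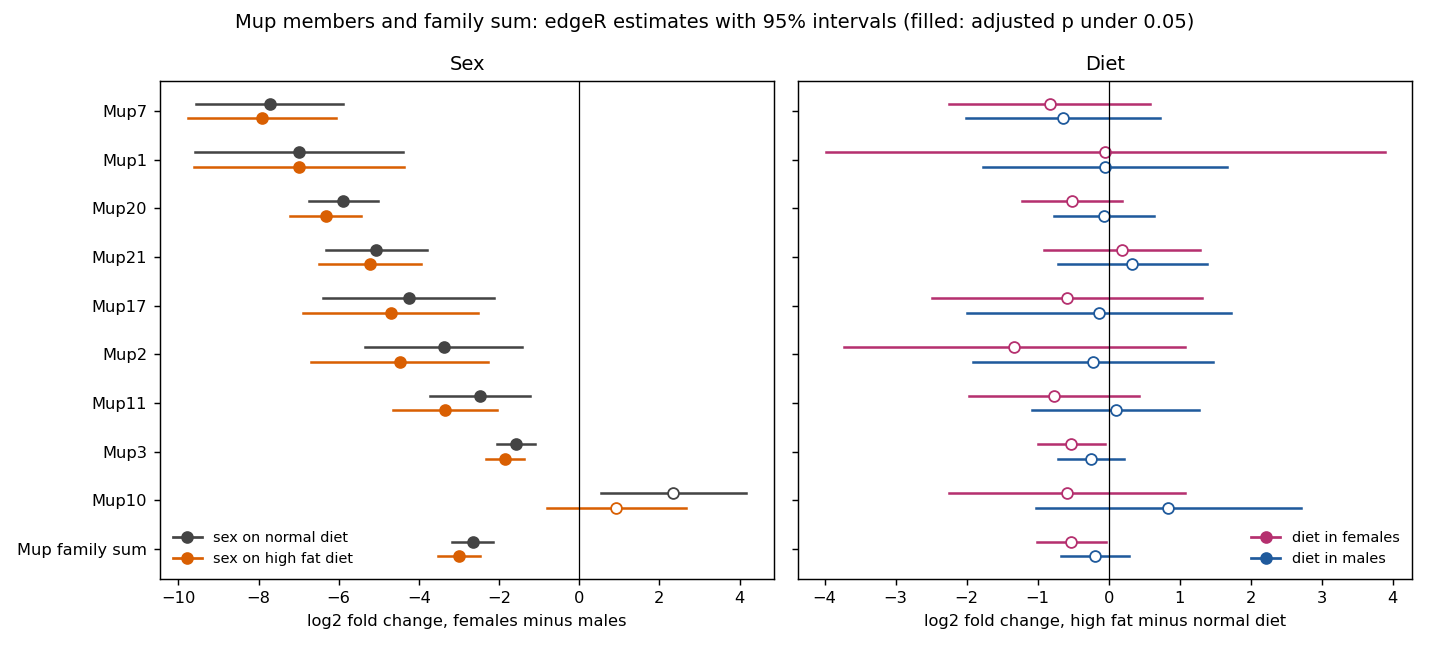
Log2 fold changes from edgeR with 95% intervals for the 9 members and the family sum: on the left females minus males on each diet, on the right high fat minus normal diet in each sex, filled where the adjusted p was under 0.05. All members but Mup10 lie left of 0 in the sex comparisons, and no diet estimate is filled.

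The upstream sequence of Mup10 resembles that of male-high copies, though less closely than Mup2, Mup11 and Mup17 resemble one another. RefSeq windows of the 250 bases before the annotated start were at hand for 7 of the 9 members (GRCm38.p6, an older build than the GRCm39 named in the submitters' processing notes, so the coordinates are not those of the count table). The windows of Mup10 and Mup17, copies whose sex estimates have opposite signs, and of Mup3, the most abundant copy in females, are printed 5′ to 3′ on the minus strand, with capitals marking the TATA box letters TATATAA.
Mup10, chr4:60582156-60582405: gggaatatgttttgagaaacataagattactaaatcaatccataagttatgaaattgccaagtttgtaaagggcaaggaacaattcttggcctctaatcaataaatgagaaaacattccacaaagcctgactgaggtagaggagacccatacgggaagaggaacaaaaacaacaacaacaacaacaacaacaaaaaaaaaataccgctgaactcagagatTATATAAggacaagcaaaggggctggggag
Mup17, chr4:61595833-61596082: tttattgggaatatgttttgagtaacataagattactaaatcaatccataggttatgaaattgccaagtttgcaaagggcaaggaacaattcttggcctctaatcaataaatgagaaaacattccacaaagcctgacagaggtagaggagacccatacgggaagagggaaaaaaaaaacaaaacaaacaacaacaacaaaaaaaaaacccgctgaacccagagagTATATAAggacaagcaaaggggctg
Mup3, chr4:62087318-62087567: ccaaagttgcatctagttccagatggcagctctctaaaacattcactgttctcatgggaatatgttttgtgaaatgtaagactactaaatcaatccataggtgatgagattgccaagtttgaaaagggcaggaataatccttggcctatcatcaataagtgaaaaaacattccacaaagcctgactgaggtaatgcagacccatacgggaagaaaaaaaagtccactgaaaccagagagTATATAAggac
The Mup10 and Mup17 windows were identical at 230 of 244 aligned bases (94.3%), and the Mup17 and Mup2 windows at 243 of 245 (99.2%). Mup2, Mup11 and Mup17 matched one another at 99.1% to 99.6% of aligned bases and matched Mup10 at 94.1% to 94.3%. Mup3 matched Mup10 at 88.2% and Mup21 at 93.4% of aligned bases. The letters TATATAA, searched on both strands with overlapping matches allowed, were in the windows of Mup2, Mup3, Mup10, Mup17 and Mup21 and in 3.04% of 32851 windows of the same length. The STAT5 motif TTCNNNGAA, bound by the factor that growth hormone activates, was in 7.02% of those windows and in none of the 7. A match is a description of letters, and a window without one says only that the letters are not in it.

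Mup3 made up most of the family RNA in females, whereas Mup3 and Mup20 shared it in males. On TPM (each library summing to 1000000 transcripts), which are per length and allow genes to be compared, Mup3 took 90.7% to 93.2% of the family in normal diet females and 85.4% to 94.6% in high fat diet females. In males it took 36.9% to 49.1% on chow and 32.8% to 57.2% on the high fat diet. The male and female ranges did not overlap.

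The share of Mup20 in the family was 4.16%, 3.32%, 5.17% and 5.12% in normal diet females and 35.5%, 52.5%, 40.3% and 40.4% in normal diet males. High fat diet values were 11.8%, 2.70%, 3.21% and 2.78% in females and 47.3%, 37.4%, 37.7% and 49.3% in males. Female high fat diet replicate 1 stood above the other females and below all males. The difference between the sexes was -37.7 percentage points on chow and -37.8 on the high fat diet (exact two-sided permutation p = 0.0286 each, the smallest that 4 against 4 allows, adjusted p = 0.0571 over 4 comparisons, so the design cannot pass 0.05 with these results). Between the diets the share differed by 0.681 percentage points in females (exact permutation p = 1) and by 0.75 in males (exact p = 0.943). Leaving out the pair of male high fat diet libraries that stood apart gave a diet difference of 6.12 percentage points in males. The difference between the sexes on the high fat diet was then -43.2 percentage points. The share of Mup20 was higher in 1 of 4 high fat diet females than in any normal diet female, and in no high fat diet male than in every normal diet male.

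**Figure D3:**
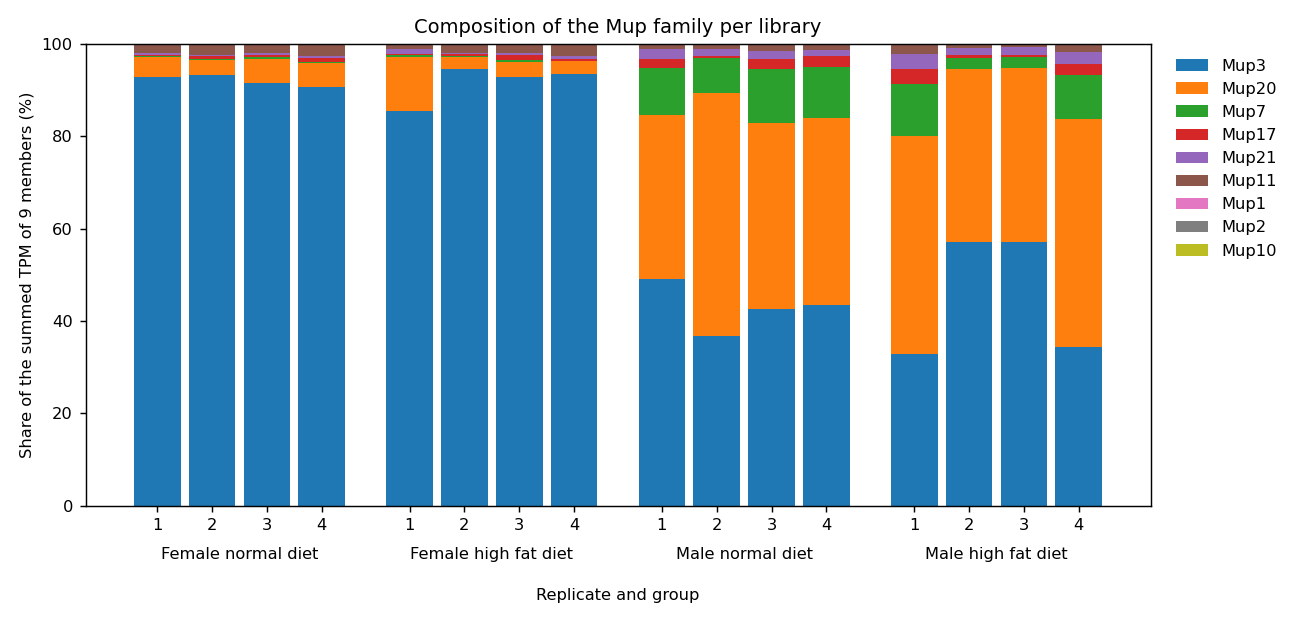
Stacked shares of the 9 members in their summed TPM, 1 bar per library, 4 replicates per group. Mup3 fills 85.4% to 94.6% of every female bar, and Mup20 fills 35.5% to 52.5% of every male bar.

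The order of the members' TPM differed between the sexes in how near the leaders were. In normal diet females the means were 8634 ± 749 TPM for Mup3 and 414 ± 74.8 TPM for Mup20 (SD, n = 4), with no overlap. They were followed by Mup11 (193 ± 26.0 TPM), Mup17, Mup21, Mup7, Mup10, Mup2 and Mup1, of which Mup17 overlapped Mup21, Mup21 overlapped Mup7 and Mup2 overlapped Mup1. In normal diet males Mup3 (25550 ± 7252 TPM) and Mup20 (24072 ± 668 TPM) overlapped. Mup7 followed at 6009 ± 1818 TPM, then Mup17, Mup21, Mup11, Mup1, Mup2 and Mup10, with overlaps between Mup17 and Mup21, Mup21 and Mup11, and Mup1 and Mup2. Mup11 held rank 3 in females and rank 6 in males, and Mup7 rank 6 in females and rank 3 in males. The order was the same in high fat diet females. In high fat diet males Mup20 preceded Mup3 and Mup21 preceded Mup17, and the libraries of each of these pairs overlapped.

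Together the 9 members took 0.937% ± 0.0731 of all TPM in normal diet females and 5.85% ± 1.05 in normal diet males (SD, n = 4). On the high fat diet the shares were 0.765% ± 0.19 in females and 5.44% ± 1.90 in males. The sexes did not overlap on either diet, with an exact two-sided permutation p of 0.0286 and an adjusted p of 0.0571 on each. The diets differed by -0.172 percentage points in females (exact p = 0.143) and by -0.406 in males (exact p = 0.743).

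No member was called for diet in either sex, where 11.5% of tested genes were called in females and 11.4% in males. In females 8 of 9 estimates were below 0 and the median was -0.58, against 0.00 for all tested genes. In males 6 of 9 were below 0 and the median was -0.07, against 0.01. At an unadjusted p under 0.05 edgeR and DESeq2 each gave 1 member in females and 0 in males, and limma on log2 TPM gave 0 in both.

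The family sum in females was 1.44-fold lower on the high fat diet (log2 fold change -0.53, SE 0.23, 95% interval -1.01 to -0.04, unadjusted p = 0.0347, adjusted p = 0.146). The 4 high fat diet values given above all lay below the 4 normal diet values. Among single members the diets did not overlap for Mup11 alone in females and for none in males, against 18.3% and 18.5% of tested genes. For Mup3 the change was -0.53 (SE 0.22, adjusted p = 0.132), and female high fat diet replicate 1, at 2085 CPM, was the lowest of the 8. The summed level of the hepatocyte markers, most of it Alb, was lower too. It was 80671 to 98319 CPM in high fat diet and 105880 to 119020 CPM in normal diet females. The means of Ttr and Apoa1 were not lower. The summed level of 6 macrophage markers was higher, at 265 to 373 against 168 to 226 CPM. Their part in the Mup values was not tested.

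Mup20 in females differed from Mup3 in which library stood out. Female high fat diet replicate 1 had the highest Mup20 of the 8 females, and the other 3 lay below all normal diet females. The log2 fold change of Mup20 was -0.52 (SE 0.33, 95% interval -1.22 to 0.19, adjusted p = 0.334). Without that library it was -0.97 (SE 0.28, adjusted p = 0.0401), the only setting in which a member was called for diet. Mup11 in the same library was 13.9 CPM against 40.9 to 43.3 CPM in the other high fat diet females, and its diet estimate was -0.77 (SE 0.55, adjusted p = 0.404). Mup21 was the 1 member with an estimate above 0 in females (0.18, SE 0.51, adjusted p = 0.852).

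In males the high fat diet group was split within itself. Mup1, Mup2, Mup7, Mup11, Mup17, Mup20 and Mup21, 7 of 9 members, had their 2 lowest values among the 8 male libraries in high fat diet replicates 2 and 3. This was so for 10.8% of all tested genes. Mup1, Mup2, Mup7, Mup11 and Mup17 are near-identical copies. Their split was set by the counting model, so their values are not separate observations. Mup3 showed no such pair, at 11397 and 11379 CPM in replicates 1 and 2. The family sum differed by -0.19 between the diets (SE 0.23, 95% interval -0.68 to 0.29, adjusted p = 0.627), and by 0.17 without replicates 2 and 3 (SE 0.22, adjusted p = 0.71). Mup20 differed by -0.07 (SE 0.33, adjusted p = 0.921), and by 0.41 (SE 0.31, adjusted p = 0.466) without them. The estimates of Mup1, Mup2, Mup7 and Mup17 likewise went from below to above 0, uncalled in either case. Without replicates 2 and 3 the estimate of Mup11 rose from 0.10 to 0.85 and that of Mup21 from 0.33 to 0.97, also uncalled.

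Other sex-dependent liver genes showed the same pair of male libraries apart. In the list of male-biased liver genes, 10 of 15 had their 2 lowest male values in high fat diet replicates 2 and 3, and in the list of female-biased genes 8 of 16 had their 2 highest there, against 10.8% and 10.97% of all tested genes. Serpina1e, a protease inhibitor of the alpha-1 antitrypsin family, was 8403, 542, 483 and 7146 CPM in the high fat diet males and 10628 to 13654 CPM in the normal diet males. Cyp7b1, an oxysterol hydroxylase, was 1001, 140, 147 and 581 CPM in the high fat diet males. Cyp2b9, a female-predominant cytochrome P450, was 3.31, 96.2, 95.8 and 6.51 CPM there, against 310.4 to 625 CPM in high fat diet females. For Serpina1e, Cyp7b1 and Cyp2b9, replicates 2 and 3 were thus between the other high fat diet males and the females on that diet. Not all genes went this way. In the male-biased list 2 of 15 (13.3%), Elovl3 and Cyp2u1, had their 2 highest male values in the pair, against 10.97% of all tested genes. Elovl3 was 56.6, 128, 135 and 84.8 CPM in the high fat diet males. Cyp2d9 was 839, 1117, 1117 and 815 CPM there.

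Other values differed between the same libraries. Lcn2, an acute phase lipocalin, was 1262, 19.2, 21.6 and 273 CPM in the high fat diet males and at most 37.9 CPM in any other library. The summed level of 6 pancreatic acinar markers, of which 1 passed the filter on low counts, was 16.5, 32.6, 32.4 and 12.3 CPM in the high fat diet males and 4.54 to 14.5 CPM in all other groups. The summed level of 5 adipocyte markers was 9.74, 19.2, 20.7 and 19.8 CPM there and 6.66 to 14.7 CPM elsewhere. The summed level of the hepatocyte markers, most of it Alb, was 58550, 78994, 80359 and 60715 CPM in the high fat diet males. It was higher in replicates 2 and 3, the pair low in most Mups. Of the single markers, Alb, Ttr and Tat were higher in that pair and Serpina1c and Hnf4a lower. Apoa1 and Apob did not set the pair apart. Summed macrophage markers were 256, 155, 133 and 208 CPM in the high fat diet males, lower in replicates 2 and 3. The part of these values in the Mup levels was not tested.

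**Figure D4:**
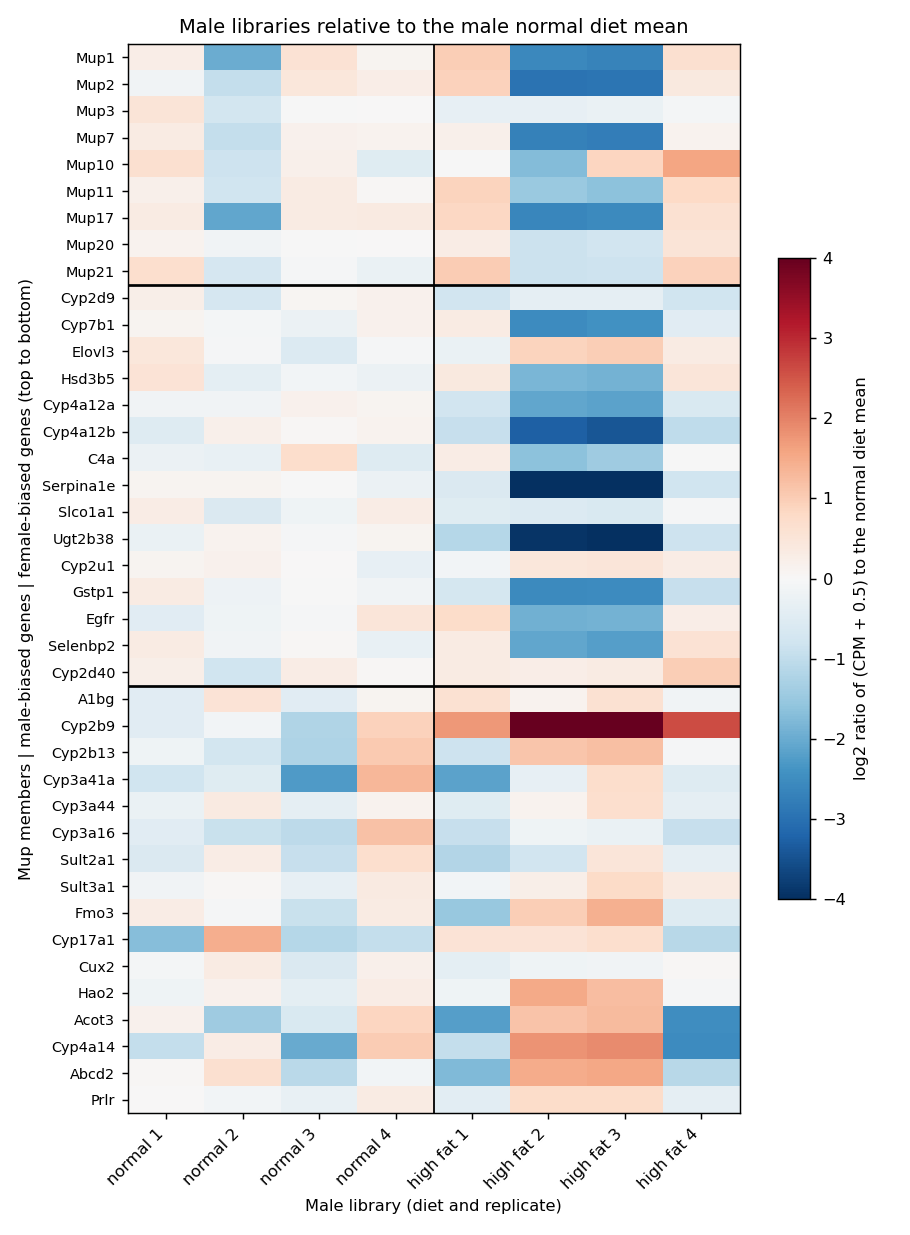
Log2 ratio of CPM + 0.5 in each of the 8 male libraries to the mean of the 4 male normal diet libraries, for the 9 members (top), 15 male-biased genes (middle) and 16 female-biased genes (bottom); colours saturate at 4 in either direction. High fat diet replicates 2 and 3 are blue in most of the upper 2 blocks and red in much of the lower one, and Mup3 is pale throughout the high fat diet libraries.

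The difference between the sexes in their response to diet was called for 0.677% of tested genes and for none of the 9 members by edgeR. No member reached an unadjusted p under 0.05 in edgeR, DESeq2 or limma. For the family sum the diet change in females minus that in males was -0.33 (SE 0.33, 95% interval -1.02 to 0.35, adjusted p = 0.72), and -0.69 without male replicates 2 and 3 (adjusted p = 0.352). With an interval of this width, a p above the threshold does not show that the sexes respond alike.

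The growth hormone axis carries the sex signal to liver. Growth hormone binds its receptor Ghr, the kinase Jak2 activates the transcription factors Stat5a and Stat5b, and Socs2 and Cish damp the signal. Bcl6 and Cux2 are repressors that favour male and female programmes, Zhx2 is a regulator of several secreted liver proteins including Mups, and Hnf4a is a main hepatocyte factor. Of the 19 genes of this list described here, all tested, edgeR called 4 on chow, each of them higher in females, and the high fat diet gave 5 higher and 2 lower, or 4 higher and 2 lower without male replicates 2 and 3. Of all 14781 tested genes, 2322 were called for sex on chow and 3022 on the high fat diet, in either direction. The median log2 fold change of the 19 genes was 0.21 and -0.09 on the 2 diets, against -0.00 and -0.01 for all tested genes.

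No sex difference was called for the receptor, the transducer Stat5b, Zhx2 or Bcl6. Ghr was 672 ± 65.4 CPM in females and 721 ± 66.3 CPM in males on chow (log2 fold change -0.10, SE 0.17, adjusted p = 0.724). Stat5b was 39.3 ± 3.31 and 30.8 ± 3.39 CPM (0.35, SE 0.13, adjusted p = 0.0767), and Zhx2 was 12.2 ± 1.73 and 13.9 ± 1.95 CPM (-0.19, SE 0.12, adjusted p = 0.303). Bcl6 was 10.2 ± 3.75 and 16.4 ± 14.9 CPM (-0.69, SE 0.48, adjusted p = 0.362), with male normal diet replicate 4 at 38.7 CPM. On the high fat diet their adjusted p-values were 0.0966 to 0.213. There Bcl6 was 5.23 ± 2.01 CPM in females and 12.4 ± 3.37 CPM in males, and Zhx2 was 13.1 ± 1.48 and 15.7 ± 0.632 CPM. For both genes the sexes did not overlap on that diet, as for 22.7% of all tested genes. Ghr and Stat5b did overlap.

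Cux2 stood apart from them. It was 17.9 ± 4.34 CPM in normal diet females and 0.246 ± 0.188 CPM in normal diet males (SD, n = 4; log2 fold change 6.03, SE 0.36, adjusted p = 8.81e-09), and 17.8 ± 3.75 and 0.17 ± 0.0781 CPM on the high fat diet (6.70, adjusted p = 5.98e-09). Prlr, the prolactin receptor, was 5.28-fold higher in females on chow and 4.78-fold higher on the high fat diet (adjusted p = 1.47e-05 and 2.33e-05). Its log2 fold change on the high fat diet was 2.26, and 2.94 without male replicates 2 and 3. Esr1, an oestrogen receptor, was 2.11-fold and 1.49-fold higher (adjusted p = 3.72e-05 and 0.00644), and its high fat diet call was lost without that pair (log2 fold change 0.37, adjusted p = 0.0933). Trim24, a nuclear receptor cofactor, was 1.73-fold and 3.14-fold higher in females (adjusted p = 0.00227 and 1.35e-06).

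Some genes of this list changed with diet. In males Stat5a rose 2.22-fold (adjusted p = 0.000834) and Stat5b rose 1.63-fold (adjusted p = 0.00243) on the high fat diet, while Trim24 fell by 0.91 on the log2 scale (adjusted p = 0.00119) and Hnf4a by 0.47 (adjusted p = 0.0139). Stat5b was 42.3, 59.2, 54.0 and 45.2 CPM in the high fat diet males, all above the normal diet males, and replicates 2 and 3 were the highest. Without replicates 2 and 3, Stat5a, Stat5b and Trim24 kept their calls (adjusted p = 0.0194, 0.0482 and 0.007), and Hnf4a, at a similar log2 fold change of -0.42, did not pass (0.083). In females Hnf4a fell by 0.60 (adjusted p = 0.00331), Cebpa and Igfals rose, and no other of the 19 genes was called. Without the male pair Igfals no longer passed in females (0.37 in both fits, adjusted p = 0.0407 with and 0.0545 without the pair).

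The list of male-biased liver genes, named for its known direction, had 13 of 15 lower in females on chow and 14 of 15 on the high fat diet. Its medians were -4.41 and -5.04, beside -4.25 and -4.70 for the Mups. Cyp2d9, a steroid-oxidising P450 and a textbook male liver gene, was 36.1-fold and 46.7-fold lower in females (adjusted p = 1.83e-10 and 7.8e-11). Cyp4a12a was 320-fold and 317-fold lower (adjusted p = 4.18e-06 and 4.96e-06). The female-biased list had 16 of 16 higher in females on chow and 15 of 16 on the high fat diet, and all 16 there without male replicates 2 and 3.

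Some genes of the male-biased list were called for diet, and whether they differ in this from the Mups was not tested. In females Slco1a1, an organic anion carrier, fell by 3.17 on the log2 scale (adjusted p = 0.00684), Cyp2d9 by 0.92 (adjusted p = 0.0101) and the fatty acid elongase Elovl3 by 1.93, while Cyp2u1 rose by 1.07. Without male replicates 2 and 3 the list had 5 called lower and 1 higher in females. In males Gstp1, a glutathione transferase, fell by 1.42 (adjusted p = 0.0232) and Cyp4a12b by 1.73 (adjusted p = 0.0354). Without male replicates 2 and 3, Gstp1 was at -0.81 (adjusted p = 0.0511) and Cyp4a12b at -0.98 (adjusted p = 0.00442). In the female-biased list Cyp2b9 rose in males by 6.15 (adjusted p = 0.00476), and by 2.76 (adjusted p = 0.0232) without them. Without them 2 further genes of that list were called lower on the high fat diet in males, Acot3 at -2.48 (adjusted p = 0.0246) and Abcd2 at -1.50 (adjusted p = 0.0211).

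Lipocalins outside the Mup cluster were called in both directions. Of 10 tested of 12, 2 were called higher and 1 lower in females on chow, with a median of 0.02. The high fat diet gave 2 higher and 3 lower, or 0 higher and 6 lower without male replicates 2 and 3. With all libraries, 2322 of 14781 tested genes were called for sex on chow and 3022 on the high fat diet. Obp2a, an odorant-binding lipocalin, was 115-fold lower in females on chow and 85.4-fold lower on the high fat diet (adjusted p = 1.25e-05 and 2.54e-05), at no more than 3.93 CPM in any library. Rbp4, the plasma carrier of retinol, was 1642 to 2473 CPM in all 16 libraries. Between the diets in males, Apom fell by 0.85 and Orm3 rose by 2.51 (3.17 without replicates 2 and 3), and 4 lipocalins were called higher without replicates 2 and 3.

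The remaining 13 Mup rows with a number in the symbol held 2.94% to 9.65% of all Mup counts in a library, and the pseudogene rows at most 0.0461%. Of these 13, 11 were tested. On chow 8 were called lower in females, and on the high fat diet all 11 tested were. Their log2 fold changes spanned -8.30 to -0.57 on chow and -7.99 to -1.35 on the high fat diet, and none was called for diet or for the interaction. Mup14, Mup15 and Mup22 are described after their values were seen. Mup14 was 3.97 ± 1.07 CPM in normal diet females and 495 ± 109 CPM in normal diet males (SD, n = 4; log2 fold change -6.96, SE 0.81, adjusted p = 0.000118). Mup15, the most abundant of these rows in normal diet males, was 60.3 ± 35.8 CPM in normal diet females and 1155 ± 566 CPM in normal diet males (adjusted p = 0.0171). Mup22 was 244 ± 49.3 and 362 ± 54.5 CPM (log2 fold change -0.57, SE 0.28, adjusted p = 0.181), which is the estimate nearest to 0 among the tested Mup rows outside the 9.

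Mup rows were left out of a search for genes whose profile over the 16 libraries was most like that of the family sum. Likeness was the root mean square distance between centred log2 profiles, over 11281 genes whose log2(CPM + 0.5) averaged 1 or more. The nearest with a symbol were C8a, a complement component (distance 0.43), Gm13773 (0.46), Lama3, a laminin chain (0.47), and Nudt7, a peroxisomal hydrolase (0.47), against a median of 1.46 over all genes compared. C8a was 219 ± 32.6 and 155 ± 30.03 CPM in females and 1157 ± 174 and 1000 ± 481 CPM in males, on the normal and the high fat diet. Nudt7 was 167 ± 10.9 and 133 ± 8.69 CPM in females and 668 ± 74.6 and 655 ± 335 CPM in males. A further 2 of the 6 nearest carried no symbol.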

How the data were processed

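Poly(A) RNA of 16 mouse livers was sequenced by the submitters, per the labels. The authors deposited expected counts and TPM per gene, made with STAR and RSEM on GRCm39 per the submitters' processing notes. Versions and the use of strand are not given in the sources used here. Of 78317 listed genes, 51487 matched a symbol. Expected counts were rounded, filtered by filterByExpr and scaled by TMM, and edgeR 4.0.16 (R 4.3.3) was fitted with its robust quasi-likelihood test to all 16 libraries, with 1 mean per group. The test was checked on simulated data. The threshold was an adjusted p of 0.05 (Benjamini-Hochberg over 14781 genes). All tests were two-sided. Shares of TPM were compared by exact permutation over 4 comparisons. For the family sum, the 9 rows were added before the fit.

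CPM are counts relative to the scaled library size. Counts carry no molecular identifiers, and p-values measure the spread between these samples. Coding sequences came from GENCODE M21 and promoter windows from RefSeq (GRCm38.p6), aligned with MAFFT 7.526. Named genes were the members, the 6 non-Mup genes nearest to the family sum by profile, 5 fixed regulators, and called genes of 4 lists (at most 4 per list and comparison). Members and lists were chosen with earlier results of these data known. One gene of the growth hormone list is not reported here, and the list's counts leave it out. Alternatives included DESeq2 1.42.0 and limma 3.58.1.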

Additional observations from a re-analysis of the deposited data

Results flagged for a closer look

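In 80 sets of 4 libraries (10 levels in CPM and 10 shares of TPM, in each of 4 groups), 4 held a library whose gap to the nearest other library exceeded the 95% critical value of Dixon's test. Chance alone flags about 1 in 20 such sets. In female high fat diet replicate 1, Mup11 was 13.9 CPM against 40.9 to 43.3 CPM in the other 3. In the same library, the share of Mup20 in the family was 11.8% against 2.70% to 3.21%. In female high fat diet replicate 3, the share of Mup17 in the family was 1.195% against 0.294% to 0.371%. In male normal diet replicate 2, Mup17 was 145 CPM against 771 to 789 CPM. No interaction of diet and sex was called for any member or for the family sum.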

How the results depend on the processing

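The lower family sum in females was called under all 28 alternatives on each diet, with log2 fold changes of -2.79 to -2.53 on chow and -3.36 to -2.79 on the high fat diet. It was called for diet or interaction under none. Its diet estimate ran from -0.63 to -0.33 in females and from -0.38 to 0.17 in males, above 0 only without male high fat diet replicates 2 and 3. The number of members called for sex stayed between 7 and 9 on chow and between 7 and 8 on the high fat diet. For diet in females it was 0 to 1 over the fits that leave out 1 library, the 1 being Mup20 without female high fat diet replicate 1, and 0 under the other alternatives. Over the 45 pairs of a member and a comparison, 1193 of 1205 alternative values kept their call or its absence, 7 lost a call, 5 gained one and 0 were called in the opposite direction. A further count, 72 uncalled estimates, changed sign. The replicate numbers did not clearly pair the libraries. Of 24 pairs with the same number, 4 had a correlation of deviations over 0.1, against 9 of 72 pairs with different numbers. The median correlation was 0.044 for the same number and -0.018 for different numbers. Of 16 libraries, 5 were closest to their own number. With the replicate block the family sum was at -2.65 for sex on chow, -2.96 for sex on the high fat diet, -0.52 for diet in females and -0.20 for diet in males, and no call of a member or of the family sum changed. The low counts of Mup1, Mup2 and Mup10 limit their estimates, and an exact test of 4 against 4 cannot go below 0.0286.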
